A study of Mus musculus with 6 samples.

Results

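The genes described here are 40 enzymes, carriers and transcription factors of cholesterol and fatty acid metabolism, chosen by their function and looked up on the array by gene symbol. Of these, 10 belong to sterol synthesis, 10 to fatty acid synthesis, elongation and desaturation, and 20 to fatty acid oxidation. A probe set, the group of short oligonucleotides that measures one transcript on the array, was found for 37 of the 40, out of 8251 genes with a probe set in all. Acaca, Fads2 and Hadha were not measured here. Where a gene had several probe sets, the one with the highest mean was used.

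RNA came from whole mouse metanephroi, the embryonic kidneys, at E14.5 (days of embryonic development). The Wnt4 mutant group consisted of 2 pools, each of 8 to 10 kidneys from 4 to 5 embryos carrying the allele Wnt4tm1Amc, with the strain given as 129. The labels call these embryos mutant without stating zygosity. The wild-type group consisted of 4 pools of 2 kidneys each, with the strain given as CD-1, and the sex of the embryos was unknown in both groups. Wnt4 is a secreted signal needed for the mesenchyme to form the renal vesicle, the first epithelial stage of the nephron, and the comparison was designed to find genes of that vesicle and its derivatives. The protocol text of all samples, mutant ones included, speaks of CD-1 matings, so whether the strains truly differed is not settled by the labels. Genotype, pool size and any difference in strain cannot be told apart, and p-values measure the spread between these pools.

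Cholesterol is built from acetyl-CoA through mevalonate, isoprenoid diphosphates, squalene and lanosterol, and the genes of this chain are known as targets of the sterol regulatory element binding proteins. Fatty acids are made in the cytosol by carboxylation of acetyl-CoA and repeated condensation, then lengthened by elongases and desaturated. They are burned in mitochondria and peroxisomes by repeated dehydrogenation, hydration, a second dehydrogenation and thiolysis. In the mature kidney, fatty acid oxidation is known as the main energy source of the proximal tubule.

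Wnt4 itself had signals of 74.2 and 34.5 on the mutant arrays, against 699 to 946 on the wild-type arrays. Of 6 nephron progenitor markers, all tested, 1 was lower (Meox2, 108 and 150 in the mutant against 243 to 279 in the wild type, limma adjusted p = 0.0191) and 5 did not pass. Their summed signal was 5397 to 5439 in the mutant and 5582 to 6013 in the wild type, with Six2 at 2643 and 2457 in the mutant and 2584 to 2925 in the wild type. The median signal was 182 to 191 on mutant and 173 to 188 on wild-type arrays. BioB, a bacterial transcript added as a control, read 930 to 950 on mutant arrays and 1645 to 1903 on wild-type arrays, and its part in any result was not tested. Gapdh, read at its 3' and 5' ends as a measure of RNA integrity, had a ratio of 0.826 and 0.830 in the mutant and 0.785 to 0.834 in the wild type.

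In mutant kidneys 9 of these genes fell and 0 rose, among 33 that passed the filter and were tested with limma. At an unadjusted p under 0.05, limma had 15 lower and 1 higher. At that unadjusted cutoff 15% of all 6081 tested genes were lower and 13.2% higher. The 9 were the sterol enzymes Idi1, Fdps, Cyp51, Nsdhl and Dhcr7, the elongase Elovl6, and Acadm, Etfb and Ech1 of fatty acid oxidation. Over all 7981 probe sets tested, 6.11% were lower and 4.65% higher by the same rule (limma, Benjamini-Hochberg adjusted p under 0.05). Differences are given as mutant minus wild type on the scale log2(signal + 16), which understates changes of dim probe sets. Filter aside, 17 of the 37 genes had both mutant signals under the whole wild-type range and 4 had both over it. The same held for 16.1% and 17.1% of the 8251 genes. The filter asked that 2 or more arrays read a probe set over their 40th percentile. Without mutant replicate 2 the 9 lower calls became 2 (Elovl6 and Acadm), and without mutant replicate 1 they became 5, while the calls over all probe sets also dropped, to 188 and 198 lower. Without wild-type replicate 1 the 9 calls stayed 9 in number and those over all probe sets were 320. In whole kidneys, fewer cells of a type and less RNA per cell cannot be told apart.

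**Figure D1:**
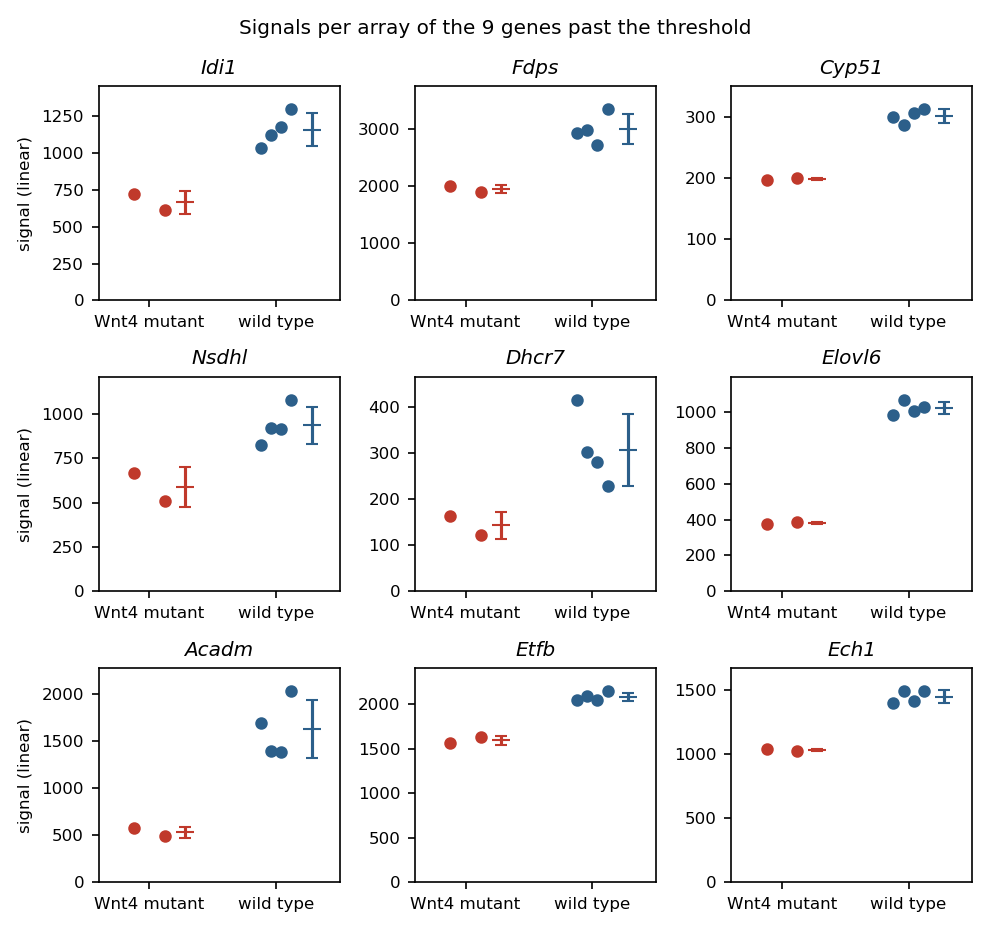
Linear probe set signals on each array (points) with the mean (horizontal bar) and SD (vertical bar) for the 9 genes past the threshold, mutant arrays in red to the left and wild-type arrays in blue to the right. No mutant point reaches the wild-type range in any panel, and the gap is widest in proportion for Acadm (means 533 in the mutant and 1623 in the wild type) and Elovl6 (380 in the mutant and 1020 in the wild type).

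Sterol synthesis genes were lower in the mutant at several points of the chain. Of 10 measured, 5 fell, 0 rose, 4 did not pass and 1, Sc5d, was below the filter (limma, with 6 lower and 0 higher of 9 tested at an unadjusted p under 0.05, against 15% and 13.2% of all tested genes). The median difference over all 10 was -0.56, against 0.02 over all 8251 genes, and the median mutant level was 66.0% of the wild-type level. For 6 of the 10 genes both mutant signals were under the wild-type range, and for 1 over it.

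Early in the chain, Idi1, which interconverts the isoprenoid building blocks, read 720 and 610 on the mutant arrays, against 1032, 1121, 1176 and 1297 on the wild-type arrays. The groups were clearly apart, with a difference of -0.78 ± 0.12 (SE; limma, adjusted p = 0.00458). Fdps, the synthase of farnesyl diphosphate, read 2005 and 1904 in the mutant, against 2940, 2992, 2724 and 3358 in the wild type, a difference of -0.61 ± 0.10 (adjusted p = 0.00544). A further tested Fdps probe set fell by 0.54 (adjusted p = 0.00747). Its 2 remaining probe sets were below the filter. The Idi1 and Fdps calls held under 15 of 16 alternative settings and were lost without mutant replicate 2 (adjusted p = 0.0725 and 0.0796).

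Among the later enzymes, which turn lanosterol into cholesterol, Nsdhl read 667 and 510 in the mutant, against 823, 923, 918 and 1080 in the wild type. It fell by 0.66 (SE 0.15; adjusted p = 0.0238), and its other probe sets fell by 0.72 (adjusted p = 0.00857) and 0.52 (adjusted p = 0.0469). All 3 probe sets of this sterol decarboxylase passed, and the call of the brightest was lost under 4 of 16 alternatives. Cyp51, the lanosterol demethylase, read 197 and 199 in the mutant, against 300, 286, 306 and 313 in the wild type. Its arrays were tight within each group, but the call was a marginal one (-0.57 ± 0.15, adjusted p = 0.0473) and was lost under 9 of 15 alternatives, including each omission of a single array. Dhcr7, the reductase of the final step, read 164 and 122 in the mutant, against 416, 302, 280 and 229 in the wild type. This was the largest difference in the chain (-1.003 ± 0.25, adjusted p = 0.0351), with the widest wild-type spread among the 5 on the log2 scale, and the call was lost under 7 of 16 alternatives. Leaving out wild-type replicate 2 or 3 or mutant replicate 1 left 3 sterol calls, and leaving out mutant replicate 2 left 0.

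The other sterol enzymes did not pass. Fdft1, squalene synthase, read 692 and 737 in the mutant, against 786, 1232, 972 and 1333 in the wild type. The groups did not overlap, yet the wild-type arrays were scattered and the difference of -0.56 ± 0.20 missed the threshold (adjusted p = 0.107). It passed without wild-type replicate 1 (-0.70, adjusted p = 0.0358). Hmgcs1, which makes the substrate of the rate-limiting reductase, read 1168 and 1472 in the mutant, against 1878, 1816, 2014 and 1229 in the wild type. The low wild-type replicate 4 overlapped the mutant arrays (-0.37, adjusted p = 0.258), and without it the difference was -0.53 (adjusted p = 0.0214). Sqle, squalene epoxidase, had -0.20 (95% interval -0.48 to 0.09) and Lss, lanosterol synthase, -0.14 (-0.60 to 0.31). Sc5d, the lathosterol desaturase, read 53.7 and 65.1 in the mutant and 39.1 to 52.6 in the wild type, below the filter. A further Sc5d probe set, also below the filter, read 94.59 and 73.85 in the mutant and 10.36 to 42.2 in the wild type.

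Enzymes of the same chain outside these 40 did not show such calls. Of 7 measured (Mvk, Mvd, Ebp, Msmo1, Hsd17b7, Tm7sf2 and Ggps1), 0 passed by limma (adjusted p 0.389 to 0.820, with 0 at an unadjusted p under 0.05), and their differences ran from -0.37 to 0.18 with a median of -0.20. Mvd, the decarboxylase of mevalonate diphosphate, had -0.20, and Msmo1, a sterol methyl oxidase, also had -0.20. Dimmer probe sets of Mvk and Tm7sf2 had -0.20 and -0.32 (limma adjusted p = 0.677 and 0.359), opposite in sign to the ones used. A dimmer probe set of Ggps1 had 0.30 (adjusted p = 0.619), the same sign as the one used. The list of other sterol genes, with transporters and regulators, had 16 measured and 14 tested members. At an unadjusted p under 0.05, limma had 2 lower and 1 higher, against 15% and 13.2% of all tested genes. After adjustment 0 fell and 1 rose, against 6.11% and 4.65% of all probe sets tested. That one was Abca1, which exports cholesterol from cells. It read 393 and 443 in the mutant, against 146, 124, 190 and 160 in the wild type (1.36 ± 0.21, adjusted p = 0.00392). A dimmer Abca1 probe set had 0.51 (adjusted p = 0.300). The lipoprotein gene Apoe and the lipoprotein receptor Scarb1 had -0.47 and -0.50 (adjusted p = 0.0507 and 0.0571).

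**Figure D2:**
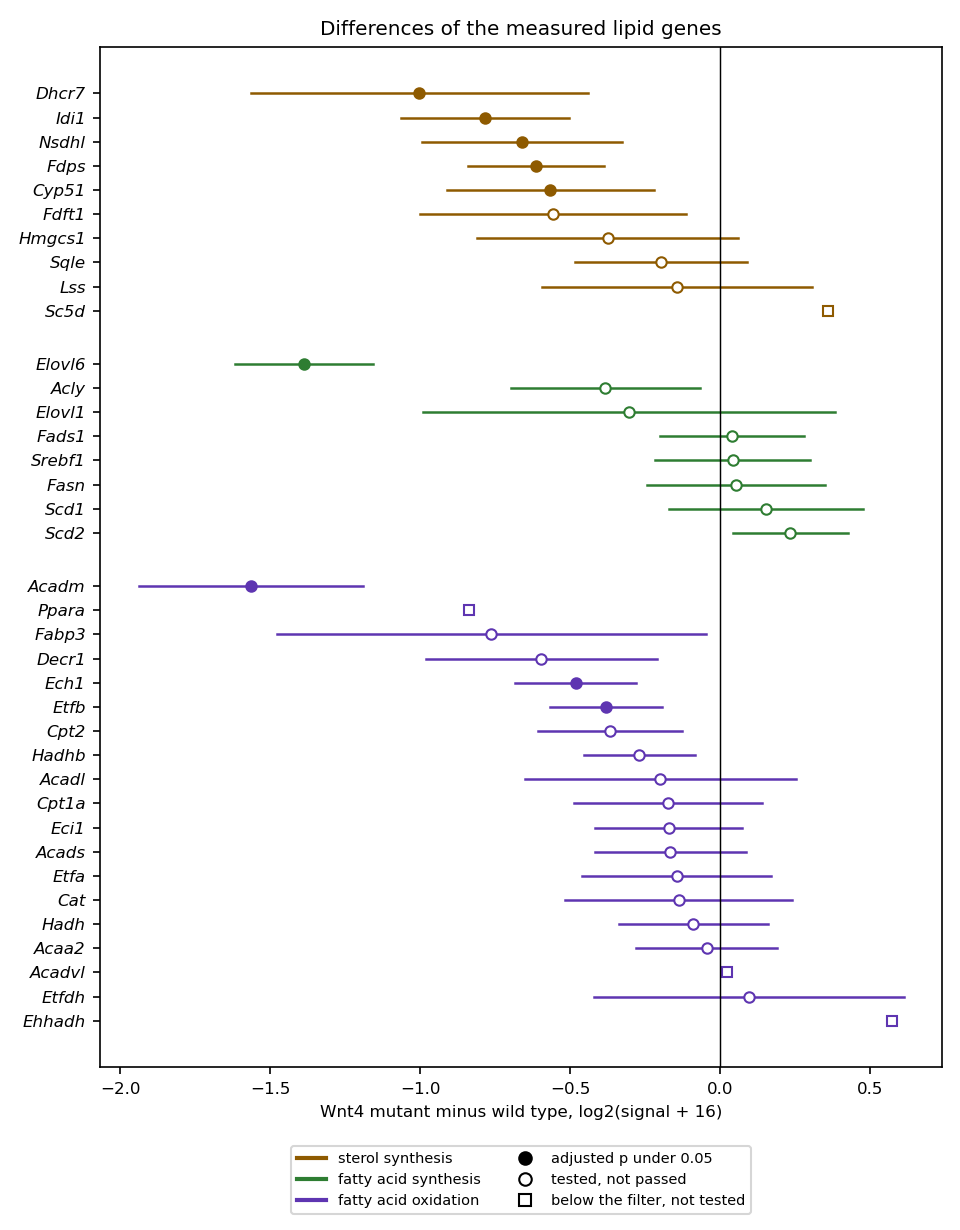
Mutant minus wild-type difference on the log2(signal + 16) scale for the 37 measured genes, ordered by difference within each pathway, with 95% limma intervals for tested genes. Filled circles passed the adjusted threshold, open circles did not, and open squares were below the filter; 9 of the 10 sterol genes lie left of 0, while 5 of the 8 fatty acid synthesis genes lie right of 0, and Elovl6, Acly and Elovl1 lie left of it.

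Because several sterol genes were lower together, the promoters of 4 sterol genes are shown beside the results, from RefSeq on GRCm38.p6. Each runs from 250 bases before to 50 after the annotated start and is written 5' to 3' on the gene's strand. Idi1, Cyp51 and Nsdhl stand for the genes that fell. Hmgcs1, which did not pass, is the sterol gene that holds a match to the sterol regulatory element. The windows are chr13:8885356-8885655 (plus strand), chr5:4104648-4104947 (minus strand), chrX:72918271-72918570 (plus strand) and chr13:119690101-119690400 (plus strand). Capitals mark matches, on either strand, to CCAAT, the letters bound by the factor NF-Y, or to TCACNCCAC, a form of the sterol regulatory element.
Idi1: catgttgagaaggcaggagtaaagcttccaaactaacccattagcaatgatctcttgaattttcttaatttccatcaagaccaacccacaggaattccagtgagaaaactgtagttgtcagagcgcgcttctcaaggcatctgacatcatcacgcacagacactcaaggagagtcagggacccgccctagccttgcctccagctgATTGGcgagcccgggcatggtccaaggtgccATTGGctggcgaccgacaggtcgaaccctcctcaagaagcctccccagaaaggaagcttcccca
Cyp51: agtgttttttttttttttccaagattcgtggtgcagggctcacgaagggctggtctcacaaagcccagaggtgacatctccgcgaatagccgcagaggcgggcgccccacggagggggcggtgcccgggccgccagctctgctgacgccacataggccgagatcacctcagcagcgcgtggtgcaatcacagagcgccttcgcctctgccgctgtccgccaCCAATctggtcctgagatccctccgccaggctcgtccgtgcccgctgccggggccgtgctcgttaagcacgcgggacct
Nsdhl: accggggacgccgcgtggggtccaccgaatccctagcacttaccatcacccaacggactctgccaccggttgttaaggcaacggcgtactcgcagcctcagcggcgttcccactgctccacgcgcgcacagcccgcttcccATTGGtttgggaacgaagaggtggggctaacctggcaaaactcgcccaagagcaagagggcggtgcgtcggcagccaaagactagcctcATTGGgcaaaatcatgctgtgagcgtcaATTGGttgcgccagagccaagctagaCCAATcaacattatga
Hmgcs1: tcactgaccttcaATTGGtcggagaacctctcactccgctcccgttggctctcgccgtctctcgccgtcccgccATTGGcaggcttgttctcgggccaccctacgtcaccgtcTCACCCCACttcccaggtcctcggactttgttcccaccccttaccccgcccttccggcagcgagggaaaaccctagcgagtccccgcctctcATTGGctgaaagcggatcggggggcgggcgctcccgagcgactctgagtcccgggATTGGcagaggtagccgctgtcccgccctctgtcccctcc

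A promoter window was found for 7 of the 10 sterol genes, and all 7 held CCAAT in at least 1 window. Fdps, which fell, and Fdft1 and Sqle had no window. In Dhcr7 it lay in 1 of the 3 windows of that gene. Among all genes with a window, 41.1% held these letters. The share was 4 of 7 in fatty acid synthesis and 7 of 18 (38.9%) in oxidation. Across the pathways it was 5 of 8 genes called lower (62.5%), near the 18 of 29 measured genes (62.1%). TCACNCCAC was found in Hmgcs1, 137 bases before the start, and in Ehhadh, against 1.44% of all genes. AAAGGTCA, part of the direct repeat bound by PPAR factors, was in 0 of these windows and in 1.70% of all genes with a window. In Idi1 the CCAAT matches began 45 and 14 bases before the start, and in Cyp51 29 bases before it. Both strands were searched, and 1 pair of matches overlapped, in Fasn. Genes that did not pass the test, such as Lss and Hmgcs1, hold CCAAT too, and a match is a description of the letters only.

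**Figure D3:**
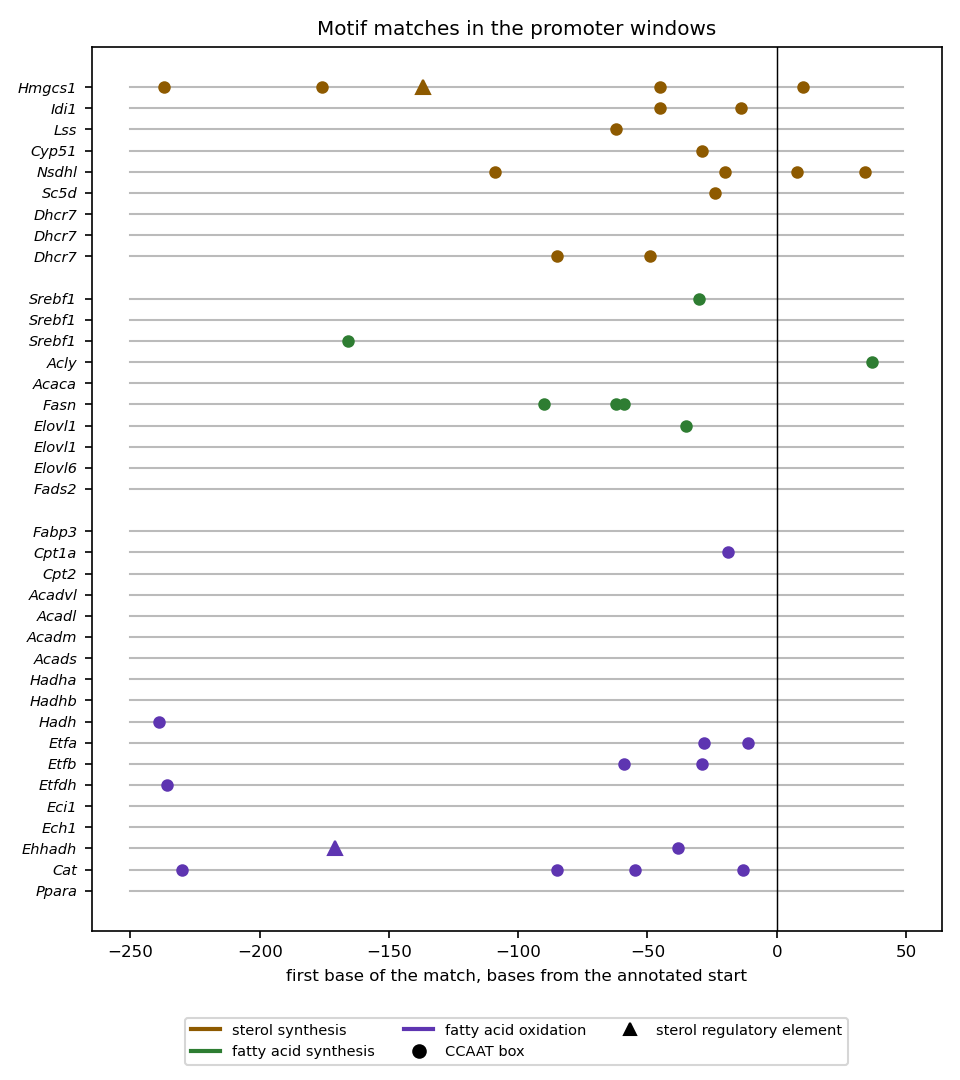
Positions of CCAAT (circles) and sterol regulatory element (triangles) matches in each promoter window of the 40 genes that has an entry, one line per window, in bases from the annotated start. Every sterol gene shown has a circle in at least 1 window, whereas Elovl6, Acadm and Ech1 have none.

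Fatty acid synthesis had 1 lower call among 8 measured genes, 0 higher and 7 that did not pass (limma, with 2 lower and 1 higher of 8 tested at an unadjusted p under 0.05, shares near those over all tested genes, 15% and 13.2%). That gene was Elovl6, the elongase that lengthens palmitate to stearate. It read 375 and 385 on the mutant arrays, against 982, 1066, 1007 and 1026 on the wild-type arrays. The mutant mean was 37.3% of the wild-type mean, 380 ± 6.89 in the mutant (SD, n = 2) against 1020 ± 35.2 in the wild type (SD, n = 4). The difference of -1.39 ± 0.10 (SE; limma, adjusted p = 9.29e-05) was the 87th lowest of 6081 tested genes and passed under all 16 alternatives. Its dimmer probe set read 190 and 197 in the mutant and 192 to 309 in the wild type, with -0.31 (adjusted p = 0.416), so the size of the fall rests on the brighter one. The mean of both probe sets had -0.85 and passed.

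The rest of the lipogenic chain did not pass. Scd2, a stearoyl-CoA desaturase of embryonic tissues, read 8031 and 8237 in the mutant, against 6889, 7533, 6531 and 6738 in the wild type. Both mutant arrays were above all wild-type arrays, with 0.23 ± 0.08 (adjusted p = 0.115), and a further probe set had 0.23 as well (adjusted p = 0.163). Scd2 passed with quantile normalization (0.26), with array weights (0.24) and with wild-type replicates 2 and 4 left out (0.28), adjusted p 0.0303 to 0.0491. Acly, which releases acetyl-CoA from citrate, read 1945 and 1782 in the mutant, against 1972, 2547, 2854 and 2437 in the wild type. The mutant arrays were just below the wild-type range (-0.38, adjusted p = 0.117), and Acly passed without wild-type replicate 1 (-0.48, adjusted p = 0.0380). Fasn, fatty acid synthase, had 0.05 (95% interval -0.24 to 0.35). Srebf1, which encodes a lipogenic transcription factor, had 0.04 (-0.22 to 0.30), and the polyunsaturated fatty acid desaturase Fads1 had 0.04 (-0.20 to 0.28). Scd1 had 0.15 (-0.17 to 0.48) and Elovl1, an elongase of very long chains, -0.30 (-0.99 to 0.38). Of these 5 intervals, that of Elovl1 alone reaches the sterol median of -0.56. The interval of Acly (-0.70 to -0.07) reaches it too. That of Elovl6 (-1.62 to -1.16) lies below it and that of Scd2 (0.04 to 0.43) above it. The contrast between the pathways was not tested. The median of the 8 genes was 0.04.

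Of the other genes of fatty acid synthesis and handling, 19 were measured, 14 were tested, 3 fell and 0 rose, against 6.11% and 4.65% of all probe sets tested. At an unadjusted p under 0.05, limma had 7 lower and 0 higher, against 15% and 13.2% of all tested genes. Elovl2, an elongase of polyunsaturated fatty acids, read 39.0 and 71.7 in the mutant, against 159, 184, 210 and 126 in the wild type (-1.40, adjusted p = 0.0286). Elovl2 passed the filter only through the wild-type arrays, so its call, counted among the 3 lower ones, is a description. Hsd17b12, a reductase that works with the elongases, had -0.42 (adjusted p = 0.0468). Dbi, the acyl-CoA binding protein, had -0.47 (adjusted p = 0.0255). Elovl5, another elongase, had 0.17 (adjusted p = 0.243).

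Fatty acid oxidation had 3 lower calls among 19 measured genes, 0 higher, 13 that did not pass and 3 below the filter (limma, with 7 lower and 0 higher of 16 tested at an unadjusted p under 0.05, against 15% and 13.2% of all tested genes). Leaving out either mutant array left 1 call, Acadm. The median difference over the 19 was -0.17, and 16 of the 19 values were below 0, against 3911 of the 8251 genes in all. Acadm, the medium-chain acyl-CoA dehydrogenase, carried by far the largest difference. It read 575 and 491 on the mutant arrays, against 1688, 1392, 1382 and 2030 on the wild-type arrays. The lowest wild-type array was still more than the sum of both mutant arrays, and the means were 533 ± 59.4 in the mutant (SD, n = 2) and 1623 ± 306 in the wild type (SD, n = 4), so that the mutant level was 32.8% of the wild-type level. The difference of -1.56 ± 0.17 (adjusted p = 0.000581) was the 62nd lowest of 6081 and passed under all 16 alternatives, running from -1.67 to -1.45.

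The related dehydrogenases for other chain lengths did not pass or were below the filter. Acadl, for long chains, read 214 and 239 in the mutant, against 298, 311, 232 and 218 in the wild type (-0.20, 95% interval -0.65 to 0.25). Acads, for short chains, had -0.17 (-0.42 to 0.09), and a further probe set had 0.24 (adjusted p = 0.543). Neither interval reaches the interval of Acadm, -1.94 to -1.19, although the differences between these genes were not tested. Acadvl, for very long chains, was below the filter, at 16.01 and 6.55 in the mutant and 2.10 to 38.4 in the wild type.

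Electron transfer and the auxiliary enzymes held the other calls. Ech1, an isomerase for unsaturated chains, read 1036 and 1027 in the mutant, against 1396, 1487, 1413 and 1491 in the wild type. It fell by 0.48 (SE 0.09; adjusted p = 0.01), a call lost without either mutant array (adjusted p = 0.0933 and 0.106). Etfb, a subunit of the flavoprotein that takes electrons from the dehydrogenases, read 1559 and 1627 in the mutant, against 2045, 2086, 2041 and 2146 in the wild type. Its difference of -0.38 ± 0.08 passed (adjusted p = 0.0205), but a dimmer probe set had 0.40 (adjusted p = 0.520), and the mean of both was 0.00697 (adjusted p = 0.984). The Etfb call was also lost without either mutant array (adjusted p = 0.185 and 0.136). Its partner Etfa had -0.14 and the oxidoreductase Etfdh, which passes the electrons on, had 0.10 (adjusted p = 0.569 and 0.831). Decr1, the reductase for unsaturated chains, read 210 and 223 in the mutant and 280 to 382 in the wild type, with -0.60 (adjusted p = 0.0583). Eci1, an isomerase of the same branch, had -0.17 (adjusted p = 0.367).

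**Figure D4:**
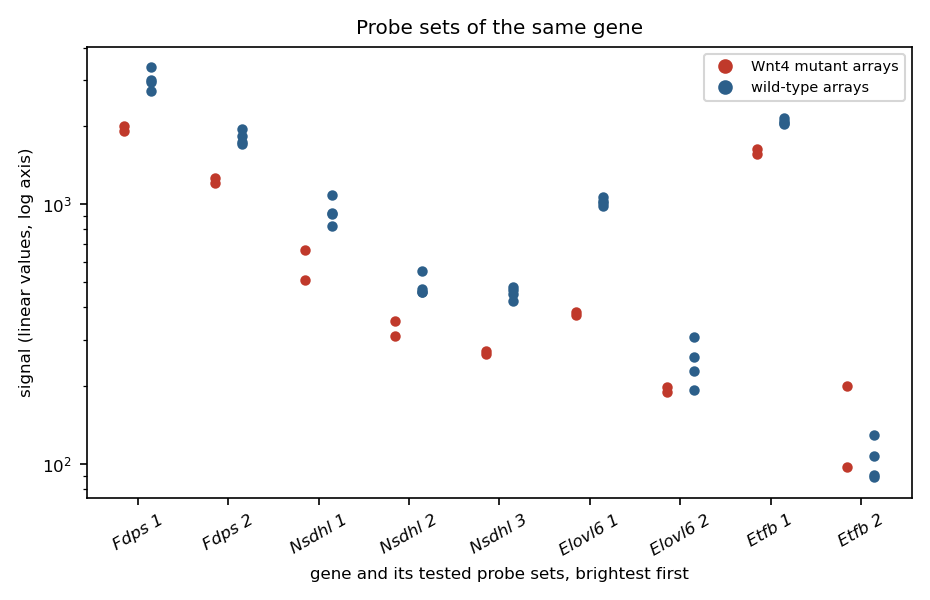
Linear signals on a log axis for all tested probe sets of the 4 called genes measured more than once, with mutant arrays in red left of wild-type arrays in blue. The probe sets of Fdps and of Nsdhl separate the groups alike, whereas the dimmer probe sets of Elovl6 and Etfb overlap.

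Genes of entry into the mitochondrion and of the later steps of the cycle did not pass. Cpt2, the inner carnitine acyltransferase, read 1223 and 1150 in the mutant, against 1692, 1374, 1548 and 1539 in the wild type. The groups did not overlap, and the difference of -0.37 ± 0.11 just missed the threshold (adjusted p = 0.0597). Cpt1a, the rate-limiting acyltransferase of the outer membrane, had -0.17 (adjusted p = 0.481). Hadhb, the thiolase subunit of the trifunctional protein, had -0.27 (adjusted p = 0.0712) with both mutant arrays, 1739 and 1764, below the lowest wild-type array, 2051. Hadh, the dehydrogenase of shorter hydroxyacyl chains, had -0.09. Acaa2, the mitochondrial thiolase, read 6008 and 5488 in the mutant, against 5403, 6091, 5584 and 6688 in the wild type. Its groups overlapped fully (-0.04, 95% interval -0.28 to 0.19). Fabp3, a cytosolic fatty acid carrier, had 74.1 and 52.7 in the mutant and 106 to 128 in the wild type (-0.76, adjusted p = 0.161), and passed under 1 of 14 alternatives.

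Of the peroxisomal and regulatory members, 1 was tested and 2 were below the filter. Cat, catalase of the peroxisome, read 438 and 525 in the mutant and 435 to 635 in the wild type, with -0.14 (adjusted p = 0.659), with 0.21 at a further probe set (adjusted p = 0.675). Ehhadh, the peroxisomal bifunctional enzyme, was below the filter at 39.98 and 26.2 in the mutant and 10.3 to 25.5 in the wild type. Ppara, the transcription factor of oxidation genes, was also below the filter, with the mutant arrays far apart at 16 and 68.3 and the wild-type arrays at 57.9 to 126.

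Among 24 other measured oxidation genes, of which 19 were tested, 2 fell and 1 rose, against 6.11% lower and 4.65% higher over all probe sets tested. At an unadjusted p under 0.05, limma had 2 lower and 2 higher. These are shares near those over all tested genes, 15% and 13.2%. Amacr, the racemase that lets branched-chain fatty acids and bile acid precursors be oxidised, had the largest difference (-2.54 ± 0.34, limma adjusted p = 0.00177). It read 62.4 and 19.5 in the mutant, against 318, 271, 238 and 345 in the wild type. Amacr passed the filter only through the wild-type arrays, so its call, counted among the 2 lower ones, is a description. Crat, carnitine acetyltransferase, read 224 and 257 in the mutant, against 544, 570, 479 and 588 in the wild type (-1.13, adjusted p = 0.00136). Acaa1a, a peroxisomal thiolase, read 1252 and 1327 in the mutant, against 706, 734, 773 and 885 in the wild type (0.73, adjusted p = 0.00518). Its close copy Acaa1b had 0.08 (adjusted p = 0.826), and signals of so similar genes may be shared. The enoyl-CoA hydratase Echs1 and the carnitine carrier Slc25a20 had 0.10 and 0.17 (adjusted p = 0.518 and 0.428).

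Because Elovl6 and Acadm had the largest falls of the 37, their promoters are shown, at chr3:129532136-129532435 (plus strand) and chr3:153944594-153944893 (minus strand) of GRCm38.p6, from RefSeq and 5' to 3' on the gene's strand. Neither window holds any of the 3 motifs searched, so no letter is in capitals. The windows have 55.7% and 62.3% G and C.
Elovl6: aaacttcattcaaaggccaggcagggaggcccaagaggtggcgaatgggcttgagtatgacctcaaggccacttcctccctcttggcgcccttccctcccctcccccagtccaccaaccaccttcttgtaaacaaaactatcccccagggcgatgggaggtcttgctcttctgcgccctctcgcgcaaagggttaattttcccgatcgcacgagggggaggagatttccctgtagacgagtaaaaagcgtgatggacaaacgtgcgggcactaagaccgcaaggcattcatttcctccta
Acadm: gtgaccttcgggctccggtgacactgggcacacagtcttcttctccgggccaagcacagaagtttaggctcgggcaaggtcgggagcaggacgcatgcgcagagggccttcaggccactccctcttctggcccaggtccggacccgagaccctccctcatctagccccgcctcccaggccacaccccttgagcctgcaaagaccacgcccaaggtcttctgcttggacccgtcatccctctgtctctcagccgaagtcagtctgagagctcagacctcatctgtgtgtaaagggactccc

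Array by array, the sterol genes deviated from their wild-type means by a median of -0.56 and -0.54 on the mutant arrays. On the wild-type arrays the same median ran from -0.08 to 0.11. For oxidation genes it was -0.26 and -0.23 on the mutant arrays and -0.08 to 0.05 on the wild-type arrays. For fatty acid synthesis genes it was -0.08 and 0.08 on the mutant arrays and -0.04 to 0.06 on the wild-type arrays. Wild-type replicate 4 had the highest wild-type signal for 6 of 10 sterol and 11 of 19 oxidation genes, but for 1 of 8 synthesis genes.

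**Figure D5:**
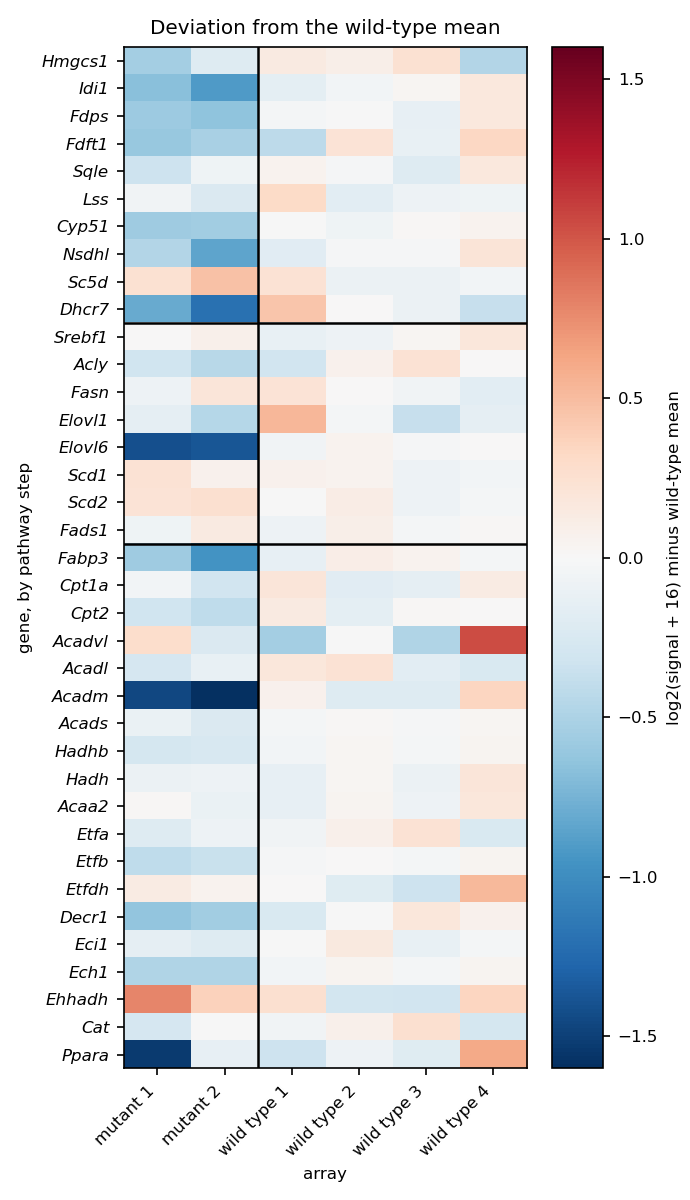
Deviation of each array from the wild-type mean on the log2(signal + 16) scale for the 37 measured genes (rows, by pathway), mutant arrays in the first columns. Blue is lower and red higher; the sterol block is blue on both mutant arrays for the 5 called genes and Fdft1, whereas the synthesis block is dark for Elovl6 alone.

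Markers of other cell types moved between the groups as well, and their part in the results was not tested. Over all 7981 probe sets tested, 6.11% were lower and 4.65% higher (limma, Benjamini-Hochberg adjusted p under 0.05). Of 11 measured proximal tubule markers, 7 fell, 0 rose and 3 did not pass, and their summed signal was 371 to 378 on mutant arrays against 2604 to 3528 on wild-type arrays. Pdzk1 and Vil1 of this list read at most 11.0 and 5.14 on the mutant arrays. With Mep1a, Keg1, Slc34a1 and Slc22a6, they passed the filter only through the wild-type arrays, so these calls are a description. The same holds for the hepatocyte marker Afp. Genes listed for the ureteric bud moved both ways, with Calb1 (-0.61) and Lhx1 (-1.76) lower, Krt8 (0.36) higher, 2 that did not pass and Ret below the filter. Lhx1 is also a gene of the renal vesicle, so its fall cannot be assigned to the bud. The sums of the list were 4344 to 4454 in the mutant and 4376 to 4898 in the wild type. The nephron progenitor list had the 1 lower call of Meox2 given above. All 5 stromal markers rose, with sums of 17933 to 17995 in the mutant against 6473 to 7541 in the wild type. Skeletal and cardiac muscle markers summed to 4466 to 4669 in the mutant and 906 to 1700 in the wild type, with 4 of 9 higher. Of 5 erythroid markers, 3 were higher, the globins Hba-x, Hbb-y and Hbb-bh1. Alas2 (-0.46) and Epor (-0.13) did not pass (limma adjusted p = 0.0643 and 0.799). Erythroid sums were 17442 to 18892 in the mutant and 5049 to 7642 in the wild type, with Hbb-y alone at 12187 and 13314 in the mutant. Tnnc1 and Hbb-bh1 passed the filter only through the mutant arrays. Adrenal and gonadal markers, from tissue rich in sterol synthesis, had 0 of 4 tested genes past the threshold (limma, with 1 higher at an unadjusted p under 0.05) and sums of 3428 to 3659 in the mutant and 3137 to 4038 in the wild type. Star, Cyp11a1, Cyp17a1 and Hsd3b1 of that list were below the filter. Adipocyte markers had 0 of 2 tested genes past the threshold (limma, with 0 at an unadjusted p under 0.05) and sums of 690 to 706 in the mutant and 339 to 715 in the wild type, with Ucp1 and Adipoq below the filter. Of 5 hepatocyte markers, Alb, Apoa1, Ttr and Apoc2 were below the filter and Afp fell by 1.17 (adjusted p = 0.0258), with sums of 216 to 314 in the mutant and 268 to 361 in the wild type.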

How the data were processed

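Signals of whole embryonic kidneys were analysed from 6 one-colour Affymetrix arrays (MG_U74Av2), 2 Wnt4 mutant and 4 wild type, grouped by sample title. The deposited values are linear intensities per probe set, made by the authors with GCOS, per the submitters' processing notes. Its version and settings were not stated. The mean without the lowest and highest 2% was 500.27 to 500.29 in each column, so arrays were already scaled to a common level, and precision is limited by how few arrays there are. No 2 arrays shared more than 0.0403% of values. Gene symbols came from the platform annotation, updated by gene identifier to RefSeq (GRCm38.p6): 10833 of 12422 probe sets had 1 symbol, 396 several and 1193 none here, with 66 control probe sets left out.

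Those above the 40th percentile of their own array on at least 2 arrays were tested (7981) with limma 3.58.1 in R 4.3.3 on log2(signal + 16), with a variance trend, no covariate and Benjamini-Hochberg adjustment over all of them at 0.05. The script was tested on simulated data. Medians over a pathway include genes below the filter. By rule, values in every array are given for genes past the threshold, the brightest gene of each pathway, and genes at or over 1 in size of difference whose groups do not overlap. Other pathway genes are named where they passed. Further genes given array by array, and named examples that did not pass, were chosen after their values were seen. The genes, lists, settings and motifs were chosen with earlier results of these data known. Alternatives were offsets of 1 and 64, no filter or the 60th percentile, quantile normalization, no variance trend, array weights, a replicate block, averaging the probe sets of a gene, and leaving out arrays.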

Additional observations from a re-analysis of the deposited data

Results flagged for a closer look

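Sc5d was singled out because 1 wild-type array stood apart from the other 3: replicate 1 read 52.6, against 39.1 to 40.8, a gap of 0.862 of the group's range. The probe set was below the filter, and chance singles out about 1 in 20 groups, here among 37 genes.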

How the results depend on the processing

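The sterol median stayed between -0.59 and -0.50 under all 16 alternatives, while the number of lower sterol calls was 3 with no filter, 3 without the variance trend, 3 with a replicate block and 0 to 5 with single arrays left out. Leaving out single arrays gave 188 to 553 lower and 114 to 448 higher probe sets in all, 2 to 9 lower genes among the 37, 1 to 2 lower in fatty acid synthesis and 1 to 4 lower in oxidation. It gave medians of -0.27 to -0.18 over the 37 genes, -0.075 to 0.076 in synthesis and -0.26 to -0.16 in oxidation. With array weights 738 probe sets were lower and 613 higher, 6 oxidation genes were lower and 1 synthesis gene, Scd2, was higher. Scd2 was also the 1 higher gene with quantile normalization and with wild-type replicates 2 and 4 left out. With the replicate block the medians were -0.26 over the 37 genes, -0.014 in synthesis and -0.25 in oxidation, and the calls of Cyp51, Nsdhl and Etfb were lost. Whether replicate numbers pair the samples was not settled. Deviations of same-numbered arrays correlated at 0.00305 and -0.0153. With 2 mutant arrays, their deviations from the group mean mirror each other, so these values are not separate checks of the pairs. Etfb reversed with the mean of its probe sets (0.00697, adjusted p = 0.984). Elovl6 and Acadm passed under all 16. The causes were not tested, and array number limits detection of small changes.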
